A study of Homo sapiens with 4 samples.

Results

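The genes described here are 31 enzymes and regulators of cholesterol and fatty acid synthesis, taken by symbol from a list made by function with earlier results of these data known, out of 26255 genes in the table. All 31 were found under their current symbols, and all 31 passed the limit of 1 scaled count in each comparison. They were measured by RNA sequencing in A549 cells, an established line from a human lung adenocarcinoma, in 4 libraries with 1 library per group. The solid tumor and acinar tumor libraries come from A549 xenografts in mice, with cells of each growth pattern cut out by laser microdissection. The single culture and mix culture libraries come from GFP-labelled A549 cells sorted out of 3D tumor colonies, which per the labels' protocols were formed without or with cancer-associated fibroblasts (CAFs). The mix culture was read as the one with CAFs, since no other culture condition is named. No drug, genotype or time point distinguishes the groups, and the mouse strain and age are not stated. The labels do not say whether both tumor areas came from 1 mouse or how many mice or cultures were pooled.

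Cells make cholesterol from acetyl-CoA by way of mevalonate, farnesyl diphosphate, squalene and lanosterol, and they make palmitate from the same acetyl-CoA by way of malonyl-CoA. Transcription of both arms is driven by the SREBP factors, which are held in the endoplasmic reticulum by SCAP and INSIG when sterols are plentiful and are released when sterols run low. SREBF2 is best known for the sterol arm and SREBF1 for the fatty acid arm, and many tumor cells keep both arms active for membrane growth.

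Levels are given in scaled counts, the authors' normalised counts over 1 shared constant. Gene length is not taken out, so 1 gene's level says nothing against another's. A fold is the plain ratio of scaled counts of 2 libraries, with a 95% interval that covers counting error only. A log2 ratio has 1 scaled count added to each value, and "past 2-fold" refers to that ratio. With 1 library per group there is no replicate check and no p-value, and each difference is between libraries.

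The sterol arm and the fatty acid arm separated the 4 libraries in different ways. In the acinar tumor 13 of 19 sterol enzymes were past 1.5-fold higher than in the solid tumor, where 6.34% of 13979 genes were. None was past 1.5-fold lower (8.07% of genes). Acinar levels of all 19 but DHCR7 lay within 2-fold of both cultures. The 7 fatty acid genes stayed low in both tumors, between 6.75% and 31.2% of their level in the single culture. All 7 were also higher in the acinar than in the solid tumor (50.8% of genes were). Of these, SCD and FADS2 were past 1.5-fold, 2 of 7 where 6.34% of genes were. Together the 31 genes took 0.349% of the solid tumor's counts, 0.532% of the acinar tumor's, 1.88% of the single culture's and 1.35% of the mix culture's. The sum of the 7 fatty acid genes was 1717 (solid tumor), 2533 (acinar tumor), 14480 (single culture) and 9942 scaled counts (mix culture). For the 8 genes of the mevalonate arm the sums were 514, 896, 913 and 851 scaled counts in the same order. For the 11 genes from squalene to cholesterol they were 695, 1324, 1615 and 1480. The solid tumor had the lowest sum in each. The acinar sum lay between the cultures in the mevalonate arm and below both cultures from squalene to cholesterol. Highly counted genes weigh most in these sums, and PMVK and GGPS1 were higher in both tumors than in both cultures. In these bulk samples, fewer cells of a type and less RNA per cell cannot be told apart.

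**Figure D1:**
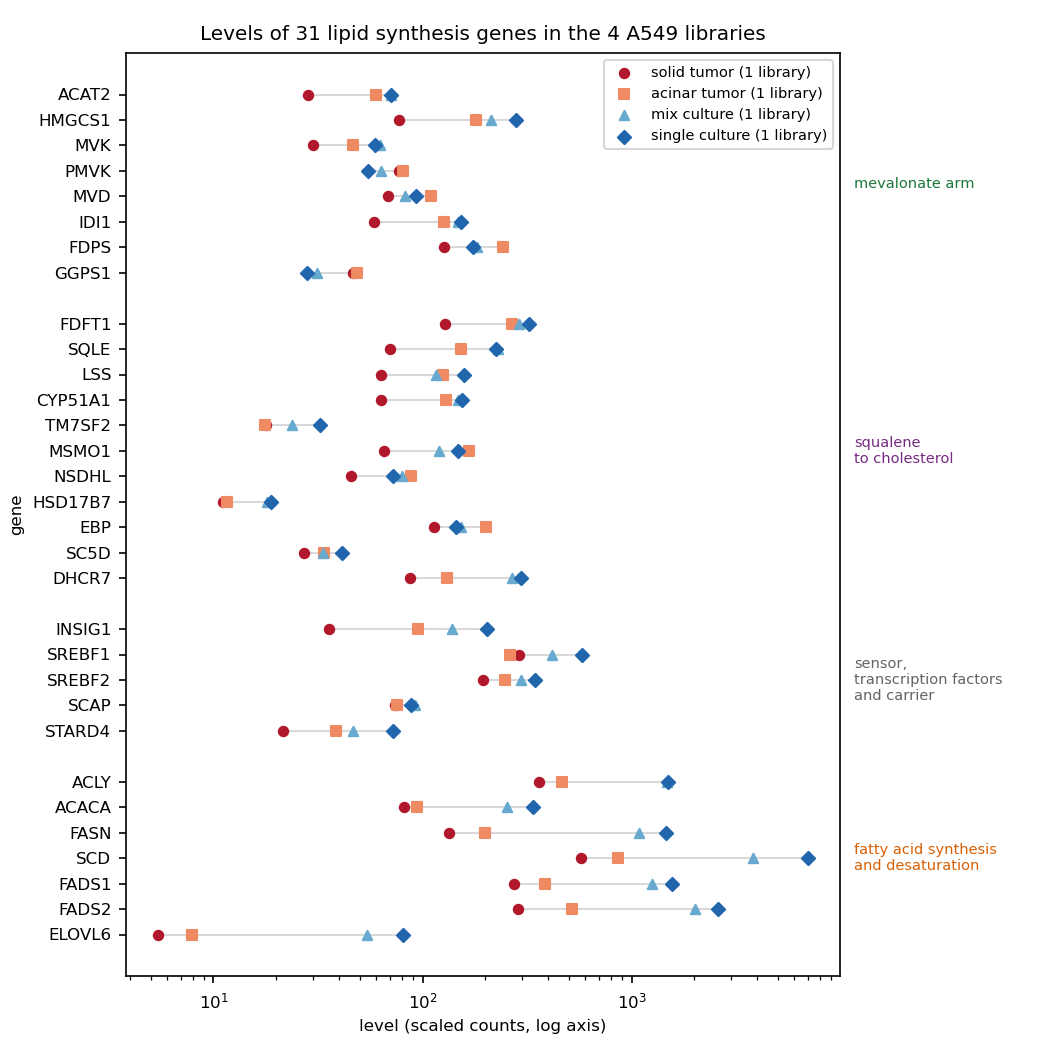
Level of each of the 31 genes in scaled counts (log axis) in the 4 libraries, 1 point per library, grouped by role. The solid tumor points are the lowest of the 4 for 27 genes, and in the fatty acid group both tumors lie far to the left of both cultures.

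The libraries held an estimated 7265000 fragments (solid tumor), 6633000 (acinar tumor), 10965000 (single culture) and 12184000 (mix culture), and 3 fragments, the limit that a count of 0 allows, corresponded to 0.242 to 0.465 scaled counts. Among the epithelial and A549 markers, the keratin gene KRT8 was at 2451 to 4507 scaled counts. All 7 endothelial markers stayed below 1 scaled count in every library. Of 8 adipocyte markers, ADIPOQ, FABP4 and CIDEA were listed at 0 in all 4 libraries, and the list summed to 12.4, 4.19, 7.64 and 5.31 scaled counts in the solid tumor, acinar tumor, single culture and mix culture. The 8 hepatocyte markers summed to 56.5, 20.2, 40.9 and 25.9 scaled counts, with APOB listed at 0 throughout. Most of it was APOH (39.6, 13.5, 37.0 and 22.3 scaled counts), followed by F2 in the solid tumor (9.65, 1.55, 2.04 and 2.66). The 12 fibroblast markers summed to 87.3, 107, 120 and 136 scaled counts, with POSTN listed at 0 throughout and PDGFRB at 0.178 or less. Most of that sum was COL1A1 (32.3, 30.7, 19.3 and 29.5 scaled counts), FBLN1 (27.4, 11.2, 75.0 and 89.4) and LUM (19.6, 55.4, 0 and 0.0805), the last of these higher in the acinar than in the solid tumor. The part of these genes in the results was not tested. The 8 leukocyte markers summed to 239, 146, 49.9 and 44.0 scaled counts, most of it CD68 and LYZ, with PTPRC between 0.644 and 1.40; their part in the differences between tumors and cultures was not tested. The values stand under human symbols, so mouse host cells cannot be measured from them.

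The promoters of 4 members are shown because their genes lead the results: INSIG1 and MSMO1 had the largest folds between the tumors, SREBF2 encodes the sterol-arm factor, and SCD had the largest difference between the cultures. Each line gives the 250 bases before the RefSeq start site, 5′ to 3′ on the gene's strand, from RefSeq (GRCh38.p14). Capitals mark the CCAAT box (CCAAT, bound by NF-Y, a partner of SREBP) and the core of the sterol regulatory element in a looser form (CACNCCAC) or a stricter one (TCACNCCAC, which contains the looser form), each on either strand.
INSIG1 promoter, chr7:155297628-155297877, + strand: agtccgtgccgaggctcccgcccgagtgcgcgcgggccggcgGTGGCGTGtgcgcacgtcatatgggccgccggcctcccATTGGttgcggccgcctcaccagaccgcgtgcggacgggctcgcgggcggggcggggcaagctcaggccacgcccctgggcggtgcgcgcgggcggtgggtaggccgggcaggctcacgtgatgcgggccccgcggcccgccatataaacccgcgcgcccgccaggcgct
MSMO1 promoter, chr4:165327419-165327668, + strand: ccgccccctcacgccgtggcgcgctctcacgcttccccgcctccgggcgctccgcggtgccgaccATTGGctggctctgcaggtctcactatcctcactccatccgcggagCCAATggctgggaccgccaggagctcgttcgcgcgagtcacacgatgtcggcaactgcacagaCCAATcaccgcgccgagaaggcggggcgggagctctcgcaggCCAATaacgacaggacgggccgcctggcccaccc
SREBF2 promoter, chr22:41832855-41833104, + strand: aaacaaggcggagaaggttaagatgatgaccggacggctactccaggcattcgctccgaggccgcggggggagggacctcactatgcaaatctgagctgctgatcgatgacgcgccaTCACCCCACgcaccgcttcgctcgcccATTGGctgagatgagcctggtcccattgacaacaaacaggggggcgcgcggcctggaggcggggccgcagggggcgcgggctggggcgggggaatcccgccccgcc
SCD promoter, chr10:100346983-100347232, + strand: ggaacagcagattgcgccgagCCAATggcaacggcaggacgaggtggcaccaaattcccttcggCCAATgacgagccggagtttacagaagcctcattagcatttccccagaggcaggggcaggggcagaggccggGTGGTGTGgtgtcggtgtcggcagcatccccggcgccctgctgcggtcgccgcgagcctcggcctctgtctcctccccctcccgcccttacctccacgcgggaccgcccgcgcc
The table of promoters held 27 of the 31 genes, with 38 windows of 250 bases before and 50 after a start site. It held no window for ACAT2, FDFT1, SQLE and FASN, so the motif counts leave these genes out. CCAAT was present in 25 of these 38 windows (65.8%) against 34.6% of all 35116 windows, and in at least 1 window of 21 of the 27 genes against 42.6% of the 10668 genes that had a window and reached 1 scaled count. MSMO1 had 4 CCAAT matches within its window. The looser sterol element was in 7 of 38 windows, of IDI1, SC5D, INSIG1, SREBF2, ACACA and SCD, against 5.87% of all windows. By gene this was 6 of 27 against 7.71% of the 10668 genes, as the SC5D windows overlap and hold the same match. The stricter form was found in the SREBF2 window only, 133 bases before the start site, against 1.13% of all windows. The GC box (GGGCGG, bound by SP1) was in 33 of 38 windows against 45.0%, and in at least 1 window of 26 of the 27 genes against 75.1% of the 10668 genes. The E-box (CACGTG) was in 5 of 38 windows against 7.26%, and in 4 of the 27 genes against 12.3% of the 10668, a share near the background. These matches describe letters in a window and do not show binding.

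The first comparison asks how tumor cells of the acinar pattern differ from those of the solid pattern. INSIG1, MSMO1, HMGCS1, SQLE, IDI1, ACAT2, FDFT1 and CYP51A1 were past 2-fold higher in the acinar tumor, 8 of 31 members where 1.98% of 13979 genes were, and no member was past 2-fold lower where 2.55% of genes were. In all, 29 of 31 members had a ratio above 0 (50.8% of all genes), the exceptions being SREBF1 and TM7SF2. The median log2 ratio was 0.62 over the members and 0.01 over all genes. Of the 25 members with whole fragments in both tumors, 19 had an interval wholly above no difference and 0 one wholly below it, against 18.4% and 16.7% of genes. Well-counted genes have narrower intervals, and the members are mostly well counted.

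Within the mevalonate arm, 6 of 8 genes were past 1.5-fold higher and none lower (over all genes, 6.34% were past 1.5-fold higher and 8.07% lower). HMGCS1, the synthase that makes HMG-CoA, was at 77.2 (solid tumor), 181 (acinar tumor), 280 (single culture) and 212 scaled counts (mix culture). The acinar tumor was 2.34-fold above the solid one (2.11 to 2.59), and both lay below both cultures. ACAT2, the cytosolic thiolase that condenses acetyl-CoA at the start of the pathway, was at 28.3, 60.2, 71.1 and 70.8 scaled counts in the same order of libraries, a 2.13-fold difference between the tumors (1.79 to 2.54). Exons of TCP1 and SOD2 overlap ACAT2 on the opposite strand in GENCODE 29 and its fragments were partly fractional, so its counts are uncertain. IDI1, the isomerase of isopentenyl diphosphate, was at 58.9, 126, 152 and 147 scaled counts and differed 2.14-fold between the tumors (1.90 to 2.42). For these 3 genes the solid tumor alone stood apart by more than 2-fold from the cultures, and the acinar tumor lay between it and them. FDPS, which makes farnesyl diphosphate, was 1.91-fold higher in the acinar tumor (1.75 to 2.07), the decarboxylase gene MVD 1.61-fold (1.43 to 1.81) and the mevalonate kinase gene MVK 1.56-fold (1.30 to 1.86). FDPS was at 127, 242, 174 and 181 scaled counts and MVD at 68.5, 110, 93.1 and 82.1, so in both the acinar tumor was the highest of the 4 libraries.

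PMVK and GGPS1 went apart from this arm. PMVK, the phosphomevalonate kinase, was at 77.3 scaled counts in the solid tumor and 80.9 in the acinar tumor (1.05-fold, 0.927 to 1.18), against 55.0 and 63.1 in the single and mix cultures. GGPS1, which makes geranylgeranyl diphosphate for protein prenylation rather than sterols, was at 46.6, 48.7, 28.0 and 31.3 scaled counts (1.05-fold between the tumors, 0.893 to 1.22). These 2 were the only members with both tumors above both cultures, a pattern that 39.8% of all genes had. GENCODE 29 places exons of ARID4B and TBCE over exons of GGPS1, and fragments there may be assigned to either gene.

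From squalene to cholesterol, 7 of 11 genes were past 1.5-fold higher in the acinar tumor (6.34% of all genes) and none lower (8.07%). MSMO1, a sterol methyl oxidase, was at 65.6 (solid tumor), 167 (acinar tumor), 148 (single culture) and 120 scaled counts (mix culture). It was 2.55-fold higher in the acinar than in the solid tumor (2.28 to 2.85), and the acinar value was the highest of the 4. SQLE, the squalene epoxidase that controls flux into sterols, was at 70.1, 152, 225 and 231 scaled counts, 2.17-fold apart in the tumors (1.95 to 2.42). The squalene synthase gene FDFT1 was at 129, 267, 324 and 290 scaled counts (2.08-fold, 1.92 to 2.25). The lanosterol demethylase gene CYP51A1 was at 63.6, 130, 155 and 149 scaled counts (2.04-fold, 1.82 to 2.29). In each of these 3 genes the solid tumor was lowest, the acinar tumor next and both cultures above it.

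The lanosterol synthase gene LSS was 1.96-fold higher in the acinar tumor (1.75 to 2.21), the sterol dehydrogenase gene NSDHL 1.93-fold (1.68 to 2.21) and the sterol isomerase gene EBP 1.76-fold (1.61 to 1.93). EBP and NSDHL were highest in the acinar tumor, at 201 and 88.1 scaled counts, although the NSDHL interval against the mix culture included no difference (1.10-fold, 0.991 to 1.22). The last reductase of the pathway, DHCR7, was at 87.4, 131, 296 and 267 scaled counts, 1.49-fold apart in the tumors (1.35 to 1.66). It was the only sterol enzyme with both tumors at least 2-fold below both cultures. The desaturase gene SC5D was 1.26-fold higher in the acinar tumor (1.03 to 1.53). The sterol reductase gene TM7SF2 (17.9 and 17.7 scaled counts in the tumors, 32.2 and 23.7 in the single and mix cultures) and the reductase gene HSD17B7 (11.0 and 11.6, 18.8 and 18.0) did not differ between the tumors beyond counting error. Their intervals, 0.760 to 1.28 and 0.757 to 1.46, were the widest of the 11 because these were the lowest counts. Exons of VPS51 overlap TM7SF2 in GENCODE 29 on the same strand.

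INSIG1, the sterol sensor that retains SCAP and is itself an SREBP target, had the largest fold of all members between the tumors. Its level was 35.7 (solid tumor), 95 (acinar tumor), 204 (single culture) and 138 scaled counts (mix culture). The acinar tumor was 2.67-fold above the solid tumor (2.30 to 3.10), and the solid tumor 5.72-fold below the single culture (5.03 to 6.54). STARD4, an intracellular sterol carrier, followed the same order at 21.5, 38.8, 72.2 and 46.7 scaled counts (1.80-fold between the tumors, 1.47 to 2.21). The genes for the transcription factors and their escort differed less. SREBF2 was at 194, 247, 344 and 297 scaled counts (1.27-fold, 1.19 to 1.37), and SCAP at 74.3, 75.4, 88.4 and 91.6 (1.01-fold, 0.895 to 1.15, with the sign turned under upper-quartile scaling). SREBF1 was at 290 scaled counts in the solid tumor and 262 in the acinar tumor, 1.11-fold lower in the acinar tumor (1.04 to 1.18), against 578 and 414 in the single and mix cultures. By these values the direction for SREBF1 between the tumors was opposite to that of the 7 fatty acid genes. Exons of RAI1 overlap SREBF1 on the opposite strand, and the SREBF1 fragments were partly fractional. Its counts, and so the direction of this small difference, are uncertain.

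All 7 fatty acid genes were higher in the acinar tumor, none past 2-fold. FADS2, which desaturates polyunsaturated fatty acids at the first step, was 1.80-fold higher (1.70 to 1.90) and its neighbour FADS1 1.41-fold (1.33 to 1.5). SCD, which makes monounsaturated fatty acids, was 1.51-fold higher (1.45 to 1.57), and the fatty acid synthase gene FASN 1.49-fold (1.37 to 1.62). ACLY, which supplies cytosolic acetyl-CoA from citrate, was 1.28-fold higher (1.22 to 1.35) and the acetyl-CoA carboxylase gene ACACA 1.15-fold (1.03 to 1.29). The palmitate elongase gene ELOVL6 was at 5.45 and 7.91 scaled counts (1.45-fold), and its interval, 0.937 to 2.26, included no difference. By role, the median log2 ratio was 0.80 in the mevalonate arm, 0.93 from squalene to cholesterol, 0.35 among the sensor, factors and carrier, and 0.50 among the fatty acid genes.

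**Figure D2:**
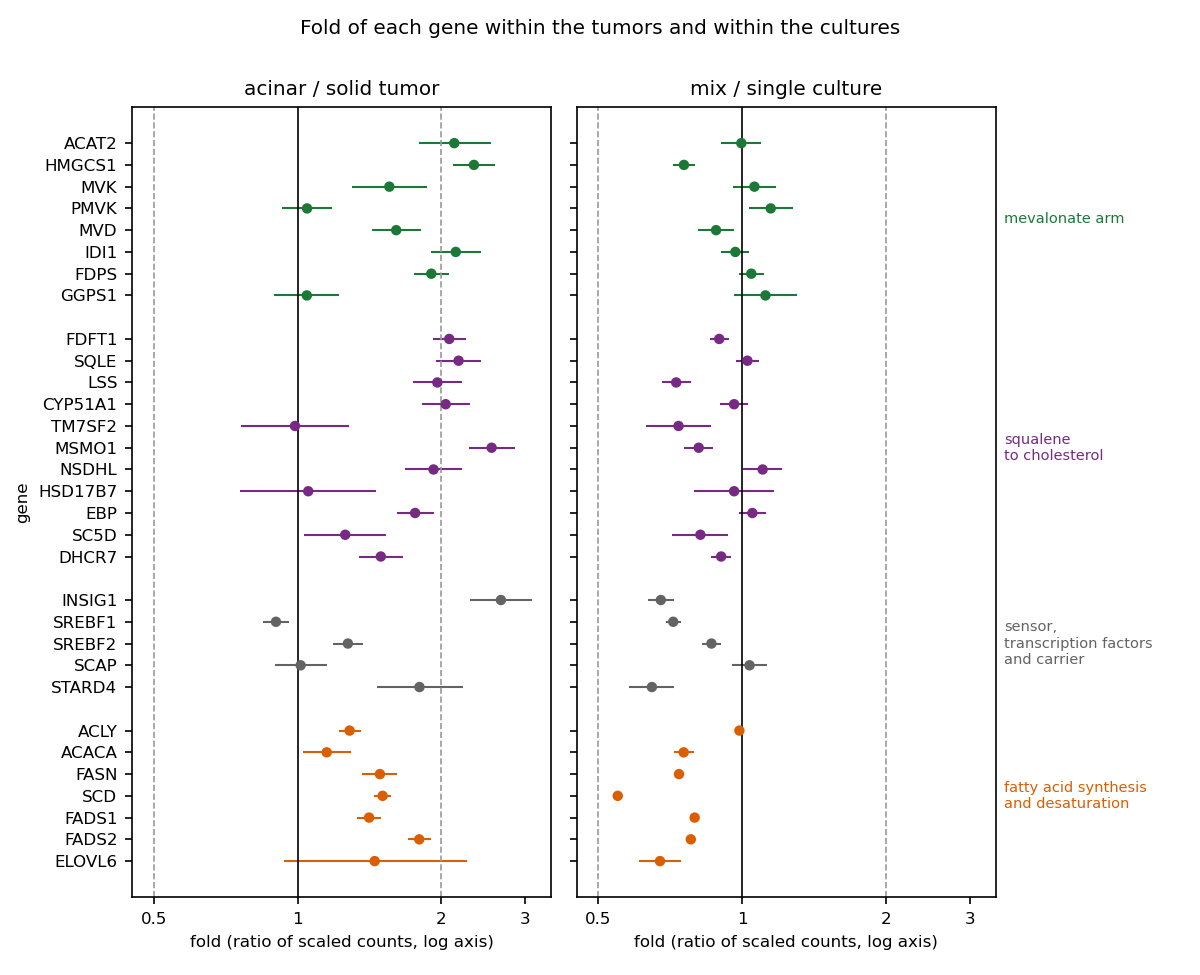
Fold of each gene (ratio of scaled counts, log axis) in the acinar against the solid tumor (left) and in the mix against the single culture (right), with 95% counting intervals as lines and dashed lines at 0.5 and 2. On the left 29 of 31 points lie above 1, led by INSIG1 at 2.67, and on the right 23 of 31 lie below 1, SCD farthest at 0.549.

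The second comparison asks what growth with CAFs does to these genes in the A549 cells of 3D colonies. Fatty acid genes, INSIG1, STARD4 and SREBF1 were lower in the mix culture by less than 2-fold, and most sterol enzymes differed little. No member was past 2-fold in either direction, where 0.682% of 13485 genes were past 2-fold higher and 1.74% lower. SCD and STARD4 were the 2 members past 1.5-fold lower (6.83% of all genes), and none was past 1.5-fold higher (3.31%). In all, 23 of 31 members had a ratio below 0, against 48% of genes, with a median of -0.18 over the members and 0.01 over all genes. Of 24 members with whole fragments in both cultures, 14 had an interval wholly below no difference and 2 one wholly above it, against 20.4% and 23.5% of genes.

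SCD was at 6951 and 3814 scaled counts in the single and mix cultures, 1.82-fold lower with CAFs (1.80 to 1.84). STARD4 was 1.55-fold lower (1.39 to 1.72), ELOVL6 1.49-fold (80.8 against 54.3 scaled counts, 1.34 to 1.64), INSIG1 1.48-fold (1.39 to 1.58) and SREBF1 1.39-fold (1.34 to 1.45). FASN was at 1466 against 1081 scaled counts, 1.36-fold lower (1.33 to 1.39), and ACACA at 336 against 254, 1.33-fold lower (1.26 to 1.39). FADS2 and FADS1 were 1.28-fold and 1.26-fold lower. ACLY did not share this difference, at 1496 and 1476 scaled counts (1.01-fold lower, 0.992 to 1.04). All 7 fatty acid genes were thus below 0. Of the 5 with whole fragments in both cultures, 4 were so beyond counting error, against 20.4% of genes. The fragments of FADS1 and FADS2 were partly fractional, as were those of SREBF1 and STARD4.

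Among the sterol enzymes, LSS was 1.37-fold lower in the mix culture (1.28 to 1.47), TM7SF2 1.36-fold (1.16 to 1.59), HMGCS1 1.32-fold (1.26 to 1.40), MSMO1 1.23-fold (1.15 to 1.32) and SC5D 1.22-fold (1.07 to 1.40). MVD, FDFT1 and DHCR7 were lower by 1.13-fold, 1.12-fold and 1.11-fold. PMVK and NSDHL were higher, by 1.15-fold (1.03 to 1.28) and 1.10-fold (1.005 to 1.21). The intervals of ACAT2, MVK, IDI1, FDPS, GGPS1, SQLE, CYP51A1, HSD17B7 and EBP included no difference, with folds of the mix over the single culture between 0.962 and 1.12. SREBF2 was 1.16-fold lower (1.11 to 1.21), and for SCAP the interval included no difference (1.04-fold higher, 0.951 to 1.13). The median log2 ratio was 0.03 in the mevalonate arm, -0.15 from squalene to cholesterol, -0.48 among the sensor, factors and carrier, and -0.41 among the fatty acid genes.

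The comparison of the tumors and that of the cultures share no library. In 21 of 31 members the acinar tumor was above the solid tumor and the mix culture below the single culture (21.5% of 12903 genes). This is the smallest overlap that the 29 members above 0 between the tumors and the 23 below 0 between the cultures allow. It therefore adds nothing to those 2 counts and shows no link between the comparisons. INSIG1 was 2.67-fold higher in the acinar tumor and 1.48-fold lower in the mix culture, and STARD4 1.80-fold higher and 1.55-fold lower. No test of the difference between the 2 comparisons can be made with 1 library each.

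The 2 tumors and 2 cultures can also be set side by side, although origin (mouse tumor or 3D colony) and harvest (microdissection or cell sorting) cannot be told apart in this design. All 7 fatty acid genes and DHCR7 were at least 2-fold lower in both tumors than in both cultures, 8 of 31 members where 8.22% of 14561 genes were. None was at least 2-fold higher, where 9.67% of genes were. Without a size limit, both tumors lay below both cultures for 22 members (38.7% of genes). These were all 7 fatty acid genes, all 5 of the sensor, factors and carrier, 6 of 11 genes from squalene to cholesterol and 4 of 8 in the mevalonate arm. The median log2 ratio of tumors against cultures was -2.56 for the fatty acid genes, -0.83 for the sensor, factors and carrier, -0.61 from squalene to cholesterol, -0.36 for the mevalonate arm and 0.02 for all genes.

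ELOVL6 had the largest ratio. At 5.45 scaled counts in the solid tumor and 7.91 in the acinar tumor against 80.8 and 54.3 in the single and mix cultures, the acinar tumor was 6.87-fold below the mix culture (5.17 to 9.33) and the solid tumor 14.8-fold below the single culture (10.8 to 21.0). FASN was at 134 and 200 scaled counts in the solid and acinar tumors against 1466 and 1081 in the single and mix cultures, with folds from 5.41 (acinar against mix) to 10.9 (solid against single). SCD was at 573 and 864 against 6951 and 3814 scaled counts, with folds from 4.42 to 12.1 over the same pairs. In each of these 3 genes the smallest tumor-culture fold exceeded the fold within either pair.

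FADS2 was at 287 and 517 scaled counts in the tumors against 2581 and 2015 in the cultures, 3.90-fold to 8.98-fold lower. FADS1 was at 273 and 385 against 1569 and 1248 scaled counts, 3.24-fold to 5.76-fold lower. These neighbouring genes overlap in GENCODE 29 on opposite strands, and their fragments were partly fractional, so the division between them is uncertain. ACLY was at 363 and 466 against 1496 and 1476 scaled counts, and ACACA at 81.5 and 93.8 against 336 and 254. Both were the nearest to the cultures in this group, ACACA 2.71-fold lower (2.48 to 2.96) in the acinar tumor than in the mix culture and ACLY 3.17-fold (3.05 to 3.29).

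In the acinar tumor the sterol enzymes were divided, with 10 of 19 below both cultures, DHCR7 the only one of them by at least 2-fold. Over all members, the acinar tumor was above both cultures for PMVK, MVD, FDPS, GGPS1, MSMO1, NSDHL and EBP, 7 of 31 members (45.6% of genes), between them for LSS and SC5D (2 members, 9.89% of genes) and below both for the other 22 (44.4%). The solid tumor was below both cultures for 29 of 31 members (44.3% of genes), all but PMVK and GGPS1. It was the lowest of the 4 libraries for 27 members (24.2% of genes), and the single culture was the highest for 21 (21.7%). The full order of solid tumor, then acinar tumor, then both cultures held for 20 members (18.5%), all 7 fatty acid genes among them. The counts of 27 and 20 are the smallest that the counts already given allow, so they restate those and add no separate pattern.

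**Figure D3:**
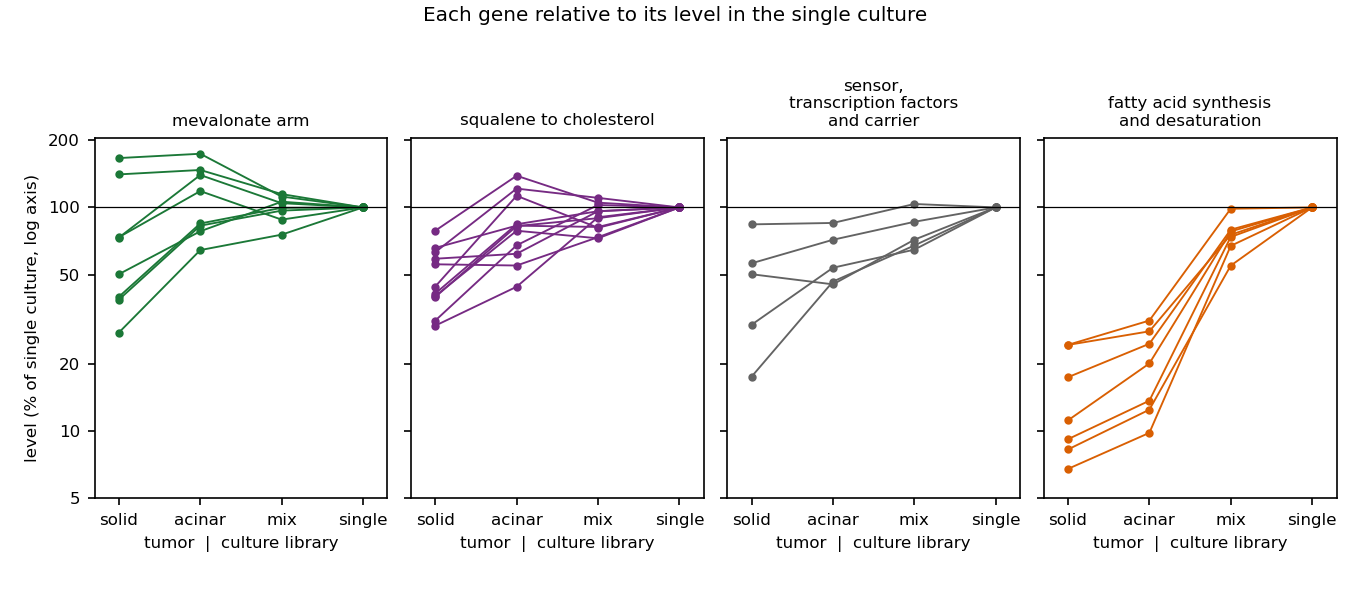
Level of each gene as a percentage of its level in the single culture (log axis), 1 line per gene, in 4 panels by role. The fatty acid genes lie between 6.75% and 31.2% in both tumors, while in the acinar tumor the mevalonate arm lies between 64.4% and 174% and the genes from squalene to cholesterol between 44.1% and 139%.

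Transcript length moved with the tumor-culture ratio over all genes. With genes divided into 5 equal parts by the longest protein-coding transcript in GENCODE 29 (a length was found for 88.4% of the 14561 genes and all 31 members), the median log2 ratio of tumors against cultures was 0.36 in the shortest part and -0.35 in the longest. The same medians ran from 0.00 to 0.02 for acinar against solid tumor and from 0.07 to -0.07 for mix against single culture. Fatty acid genes have long transcripts: FASN and ACACA at 8565 and 9961 nucleotides and ELOVL6 at 6454 fall in the longest part, ACLY, SCD and FADS1 in the next, and FADS2 in the middle one. Within their own length parts these 7 genes lay between the 1.17 and 8.35 percentile of the ratio, SCD lowest and ACACA highest. GGPS1 at the 79.2 percentile and PMVK at the 53.0 percentile were the only 2 members above their part's median. Whether RNA length or quality in the microdissected samples contributed was not tested.

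**Figure D4:**
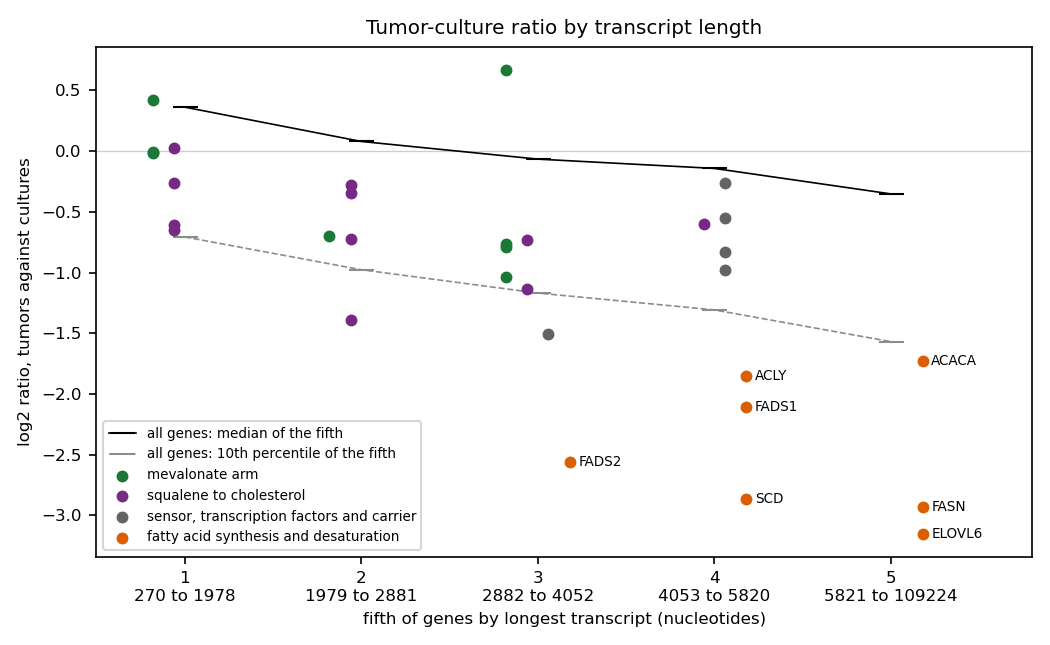
Log2 ratio of tumors against cultures (mean of the 2 tumors minus mean of the 2 cultures) of the 31 genes, by the 5 parts of transcript length, with the median and the 10th percentile of all genes in each. All 7 fatty acid genes lie below the 10th percentile of their part, as do INSIG1 and DHCR7.

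Other genes of SREBP control were listed by function. None of 15 measured genes (median 0.02 between the tumors and 0.00 between the cultures) was past 2-fold in either comparison. They include the site proteases MBTPS1 and MBTPS2 that cut SREBP, ubiquitin ligases and erlins of the endoplasmic reticulum, and the promoter factors NFYA, NFYB, NFYC and SP1. Against both cultures, MBTPS2 was at 37.9 and 40.8 scaled counts in the solid and acinar tumors against 109 and 104 in the single and mix cultures, and ERLIN1 at 43.9 and 37.8 against 108 and 124. MBTPS2 and ERLIN1 were the 2 of 15 at least 2-fold lower in both tumors (8.22% of all genes). Between the tumors, INSIG2, the paralog of INSIG1, differed in the other direction, at 32.7 scaled counts in the solid and 22.2 in the acinar tumor (1.48-fold lower, 1.19 to 1.83). TMEM97, a sterol-regulated binding protein of cholesterol transport, was at 96.8 and 145 (1.502-fold higher, 1.36 to 1.66), with partly fractional fragments. Both were chosen after their values were seen.

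Of 11 accessory enzymes of the sterol pathway and its electron supply, none was past 2-fold between the tumors (median -0.08) and none of 10 between the cultures (0.00). Against both cultures, LBR, a sterol reductase of the nuclear envelope, and the cytochrome gene CYB5A were at least 2-fold lower in both tumors, 2 of 11 (8.22% of all genes). FAXDC2 was higher, at 10.5 and 8.99 scaled counts in the tumors against 0.978 and 0.0805 in the cultures, 1 of 11 (9.67%). The 13 genes that use isoprenoids for dolichol, ubiquinone and protein prenylation had medians of -0.17 between the tumors and 0.15 between the cultures, and none was past 2-fold in either. Of these, FNTB and PDSS1 were at least 2-fold lower and RABGGTA at least 2-fold higher in both tumors than in both cultures. These were 2 and 1 of 13, against 8.22% and 9.67% of all genes.

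Of 21 measured genes in the list of other fatty acid synthesis, elongation and activation genes, 1 was past 2-fold higher in the acinar tumor and 1 lower (median 0.17), and of 22 none was past 2-fold between the cultures (0.01). ACSL5, which activates fatty acids for use, was at 44.2 scaled counts in the solid tumor and 92.3 in the acinar tumor (2.09-fold, 1.82 to 2.40), against 3.29 and 1.85 in the single and mix cultures. The elongase gene ELOVL2 was at 5.17 and 1.24 scaled counts in the solid and acinar tumors. Against both cultures, 7 of 22 were at least 2-fold lower in both tumors (8.22% of all genes). ACSL5 was at least 2-fold higher, 1 of 22 (9.67% of all genes). The largest of the 7 at 5 scaled counts or more were HACD2 (3.50 and 1.71 against 22.7 and 23.3 scaled counts), ELOVL4 (0.280 and 0.310 against 5.87 and 4.35) and ACSL3 (80.4 and 70.1 against 264 and 259). ACSL5 and the other acyl-CoA synthetases of the list, ACSL1, ACSL3 and ACSL4, thus lay on opposite sides.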

How the data were processed

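RNA of 4 A549 libraries was analysed, 1 per group, with groups taken from the sample titles. The authors deposited 1 table of 26255 gene symbols with 1 signal column per library, headed as raw signal per the file headers. Cuffdiff 2.2.1, TopHat2 2.0.13, SAMtools 1.0 and Bowtie2 2.2.3 are listed, with build hg19 and no roles, per the submitters' processing notes. Annotation and strandedness: not given in the sources used here. Between 90.1% and 91.2% of the deposited signal values above 0 were whole multiples, within 0.05 fragments and the rounding of the printed digits, of a step per library (1.25, 1.39, 0.795 and 0.720 in the solid tumor, acinar tumor, single culture and mix culture), which was taken as 1 fragment. All values were divided by 8.94 to give scaled counts, which keeps the authors' scaling.

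Ratios were log2 with 1 scaled count added, for genes reaching 1 scaled count in any library compared. Tumors and cultures were compared by their mean log2 values, and calls required both tumors past both cultures. Intervals are exact conditional binomial (Clopper-Pearson) at 95% on fragments rounded to whole numbers; 24 of 31 members had whole fragments in all 4 libraries and ACAT2, IDI1, FDPS, SREBF1, STARD4, FADS1 and FADS2 did not. Without molecular identifiers, fragments may be copies of 1 molecule, so intervals cover counting error only. Scripts (Python 3.11.15, pandas 2.3.3, SciPy 1.17.1) were tested on simulated data. The members and lists were chosen with earlier results of these data known; 122 of 124 list entries matched a symbol. Every member is accounted for. From the other lists, up to 4 genes past 2-fold per comparison at 5 scaled counts or more are named. Transcript lengths were added after the data were seen. Alternatives were pseudocount, low-value filter, library scaling, whole fragments only and a 1.5-fold limit.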

Additional observations from a re-analysis of the deposited data

How the results depend on the processing

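No paired analysis was possible because each group has 1 library. Under other pseudocounts (0.1 and 5), filters (none and 5 scaled counts), scalings (library total and upper quartile) and genes with whole fragments only, between 6 and 8 members were past 2-fold higher in the acinar tumor, between 6 and 8 were past 2-fold lower in both tumors than in both cultures, and 0 were past 2-fold in the mix culture. The member medians stayed between 0.58 and 0.64 for acinar against solid tumor, -0.20 and -0.17 for mix against single culture, and -0.79 and -0.68 for tumors against cultures. Signs of single members changed only under scaling, for SCAP (upper quartile, acinar against solid) and EBP (library total, tumors against cultures). Single ratios of tumors against cultures moved past counting error for 7 of 31 members when each library was divided by its total (SREBF1, SREBF2, ACLY, FASN, SCD, FADS1 and FADS2, all further below 0) and for ELOVL6 with a pseudocount of 5 (-2.62 against -3.15), as did SCD between the cultures under the upper quartile (-0.89 against -0.87). With a 1.5-fold limit, 17 members were higher in the acinar tumor and 2 lower in the mix culture, a wider limit by construction. Counts over all genes depended more on the pseudocount. For acinar against solid they were 277 higher and 357 lower, 478 and 692 with a pseudocount of 0.1, 114 and 101 with 5, and 886 and 1128 at 1.5-fold; with a filter of 5 scaled counts 203 were lower. For mix against single they were 92 and 234, 192 and 522 with 0.1, 33 and 73 with 5, and 447 and 921 at 1.5-fold. For tumors against cultures they were 1408 higher and 1197 lower, 864 and 774 with 5, and 2631 and 2432 at 1.5-fold. Depth limits the lowest members, ELOVL6, HSD17B7 and TM7SF2 in the tumors, and 1 library per group limits all.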

Other observations

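A list of LXR targets, efflux and esterification genes also held the LXR genes NR1H2 and NR1H3 themselves and the esterification gene SOAT1. Of 7 measured, 6 had a ratio below 0 in the acinar tumor (median log2 ratio -0.39), where 6881 of 13979 genes did. The intervals of NR1H2 and SOAT1, 2 of these 6 named after their values were seen, included no difference, and 1 was past 2-fold lower, NR1H3, which encodes LXRα, at 25.6 scaled counts in the solid and 9.92 in the acinar tumor (2.58-fold lower, 1.93 to 3.48). The efflux transporter gene ABCA1 was at 38.3 (solid tumor), 20.6 (acinar tumor), 45.1 (single culture) and 24.5 scaled counts (mix culture; chosen after its values were seen). All 7 were below 0 in the mix culture (median -0.20), against 48% of all genes, and for NR1H2 and NR1H3 the interval included no difference. In that culture the transporter gene ABCG1 was past 2-fold lower at 1.53 against 10.1 scaled counts (6.62-fold, 4.05 to 11.4). ABCG1 was at least 2-fold higher in both tumors than in both cultures, at 41.8 and 31.8 scaled counts, and LPCAT3 at least 2-fold lower. Each was 1 of 7, against 9.67% and 8.22% of all genes. Among 14 genes of cholesterol uptake and transport (13 measured between the cultures), NPC1, which exports cholesterol from lysosomes, was the only one past 2-fold within either pair, at 257.5 scaled counts in the mix and 122 in the single culture (2.11-fold, 1.98 to 2.24). That interval reached below 2-fold, and the NPC1 fragments were partly fractional, so its counts are uncertain. Against both cultures, the receptor genes LRP1 (95.1 and 58.9 scaled counts in the solid and acinar tumors against 328 and 301 in the single and mix cultures) and SCARB1 (114 and 64.2 against 335 and 286) were at least 2-fold lower in both tumors, 2 of 14 (8.22% of all genes).

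Genes of glycerolipids and lipid droplets had a median log2 ratio of 0.07 between the tumors over 14 genes, with 1 past 2-fold lower in the acinar tumor. This was HILPDA, a hypoxia-induced lipid droplet gene, at 55.0 scaled counts in the solid and 17.1 in the acinar tumor (3.22-fold, 2.60 to 4.02), with 113 and 78.6 scaled counts in the single and mix cultures. Against both cultures, AGPAT2 (320 and 243 scaled counts in the tumors against 71.4 and 69.9), the triglyceride lipase gene PNPLA2 (183 and 188 against 55.6 and 49.8) and MGLL (274 and 424 against 128 and 105) were at least 2-fold higher in both tumors, 3 of 14 (9.67% of all genes). LIPE, below 5 scaled counts in every library and named after its values were seen, was lower at 1.09 scaled counts or less, 1 of 14 (8.22%). Fatty acid oxidation genes (19 measured) had medians of -0.02 between the tumors, -0.25 between the cultures and -0.11 for tumors against cultures. In the mix culture 16 of 19 had a ratio below 0 against the single culture, where 48% of all genes did. None was past 2-fold within either pair. CPT1C and CPT2 were at least 2-fold lower in both tumors than in both cultures, 2 of 19 (8.22% of all genes).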
